A study of Homo sapiens with 9 samples.

Results

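The aminoacyl-tRNA synthetases are the enzymes that charge each tRNA with its amino acid, and 36 genes for them were followed in PC-3 cells, a line from a bone metastasis of prostate cancer. They were 20 synthetases that work in the cytosol and 16 that work in mitochondria, chosen by gene symbol through the Ensembl identifier out of 60617 genes in the count tables. All 36 were found, and all 36 passed the filter on low counts that left 18532 genes. The labels give 3 libraries of control cells, 3 of cells treated with decitabine and 3 of cells treated with decitabine and SAM (the combination treatment), all taken after 5 days. According to the methods of the study, decitabine was given at 1 µM and SAM at 200 µM, and the vehicle was sulfuric acid and ethanol in PBS. Decitabine is a cytidine analog that traps DNA methyltransferases, and SAM (S-adenosylmethionine) is the methyl donor of these enzymes. All groups are cultures of the same line in RPMI1640 medium. Whether replicates came from separate cultures is not given in the sources used here, so p-values measure the spread between these libraries, which may be technical.

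In human cells most synthetases exist as separate cytosolic and mitochondrial enzymes encoded by separate nuclear genes. Several cytosolic enzymes sit together with scaffold proteins in the multisynthetase complex, and GARS1 and KARS1 each encode the enzyme of both compartments. Many cytosolic synthetase genes are known targets of ATF4, the transcription factor that cells translate when amino acids run short. WARS1, the cytosolic tryptophanyl-tRNA synthetase, is known in addition as an interferon-inducible gene.

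The libraries held between 21934307 and 22489684 counts, and the share of the synthetases was 0.598% to 0.680% in control libraries, 0.415% to 0.445% after decitabine and 0.407% to 0.414% after the combination. Levels are given as CPM, counts relative to the library total after TMM scaling, which sets libraries to a common bulk of genes. Epithelial keratins were present, with KRT18 between 293 and 445 CPM and KRT8 between 107 and 274 CPM. Androgen receptor and TMPRSS2 had at most 3 and 6 counts in any library and KLK3 had 0 counts. KLK2 had 0 counts in control libraries, at most 24 after decitabine and at most 18 after the combination. The B cell gene MS4A1 had 0 counts and the T cell gene CD3E at most 2. The summed level of 6 blood and endothelial markers was 10.03 to 10.7 CPM in control libraries and 32.3 to 45.1 CPM in treated ones, most of it from PECAM1 (9.78 to 43.1 CPM), and the part of this difference in the results was not tested. In bulk RNA, fewer cells that express a gene and less RNA per cell cannot be told apart.

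Synthetase mRNAs were lower in the treated cells. With decitabine, 33 of the 36 genes fell and 0 rose in edgeR's quasi-likelihood test (adjusted p under 0.05 over all genes tested), where 32.5% of all genes tested were called lower and 36.3% higher. With the combination treatment 31 fell and 0 rose, where 31.3% of all genes were called lower and 35.9% higher. The median log2 fold change of the 36 genes was -0.70 with decitabine and -0.76 with the combination treatment, against 0.03 and 0.05 over all genes tested. For 34 of 36 genes every decitabine library lay below every control library, as for 34.8% of all genes. For 31 of 36 genes every combination library did, as for 33.6% of all genes. Both comparisons use the same 3 controls. Scaling by library size alone moved the median of all genes to 0.28 and 0.27 and the calls with decitabine from 6729 higher and 6030 lower to 8849 higher and 3746 lower. The calls with the combination treatment then went from 6647 higher and 5799 lower to 8695 and 3857. Under that scaling 16 cytosolic and 12 mitochondrial genes fell with decitabine, 16 and 11 fell with the combination treatment, and 0 rose.

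**Figure D1:**
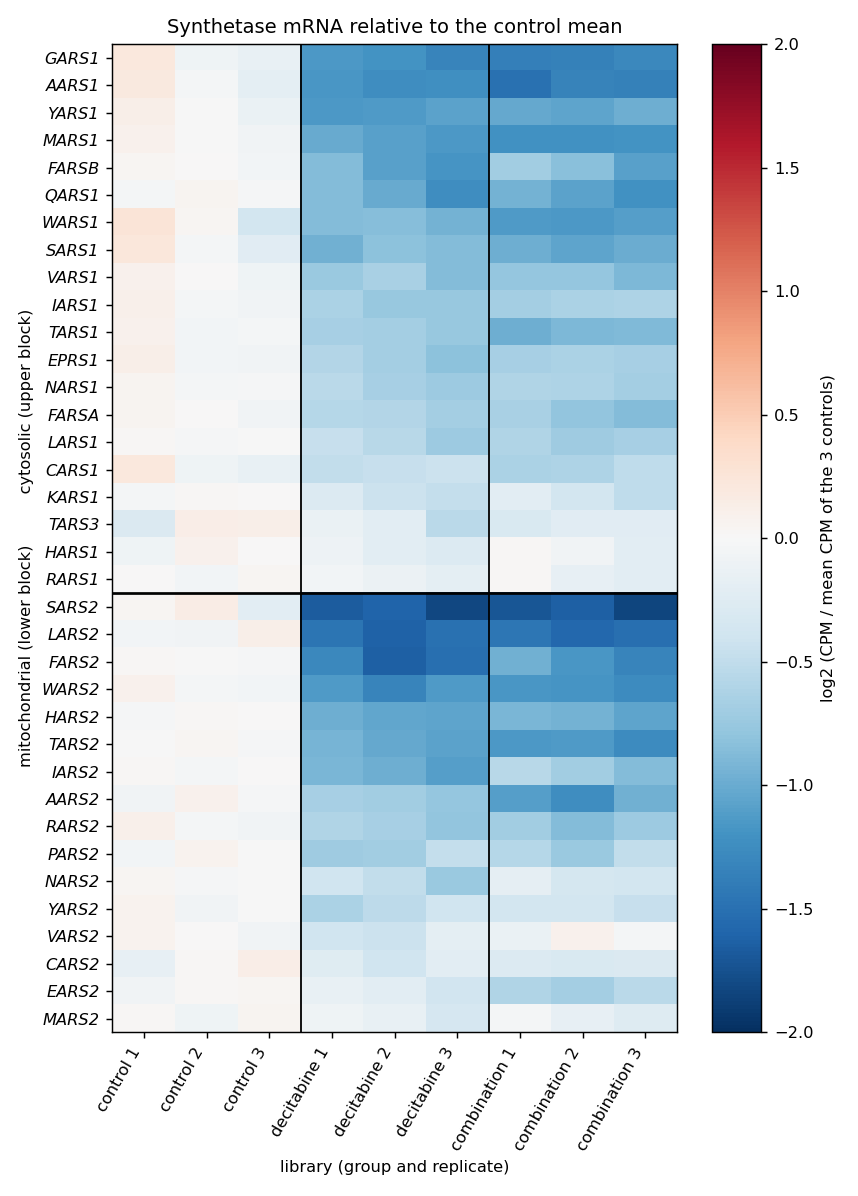
Heat map of the 36 synthetase mRNAs (rows, cytosolic above the line and mitochondrial below it) in the 9 libraries (columns), coloured by the log2 ratio of the CPM to the mean CPM of the 3 controls, with blue for lower. The treated columns are blue in most rows, with the palest rows among RARS1, HARS1, TARS3, VARS2, CARS2, EARS2 and MARS2, and control 1 is reddest for AARS1, GARS1, SARS1 and WARS1.

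Of the 20 cytosolic synthetases, 18 fell with decitabine and 17 with the combination treatment, where 32.5% and 31.3% of all genes tested fell. Their medians were -0.71 and -0.79 on the log2 scale. AARS1, which charges tRNA with alanine, stood at 567, 482 and 432 CPM in the controls, at 220, 209 and 212 CPM with decitabine and at 175, 196 and 194 CPM with the combination treatment. GARS1, the glycyl enzyme of both compartments, stood at 551, 452 and 430 CPM, then at 214, 209 and 192 CPM and at 184, 186 and 195 CPM. In neither gene did a treated library reach the lowest control. The log2 fold change of AARS1 was -1.21 (SE 0.09, adjusted p = 5e-08, edgeR) with decitabine and -1.39 (SE 0.09, adjusted p = 1.3e-08) with the combination treatment. GARS1 gave -1.22 and -1.34, the largest fall of a cytosolic synthetase with decitabine.

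The tyrosyl enzyme YARS1 (-1.12 and -1.01), the methionyl enzyme MARS1 (-1.08 and -1.21) and the glutaminyl enzyme QARS1 (-1.03 and -1.07) also fell by more than the cytosolic median. KARS1, the lysyl enzyme of both compartments, changed by -0.39 and -0.35, and the prolyl and glutamyl enzyme EPRS1 by -0.69 and -0.65. EPRS1 carries both activities in 1 protein and stood at 680 ± 47.9 CPM (SD, n = 3) in the controls and at 421 ± 33.1 CPM with decitabine.

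Arginyl-tRNA synthetase RARS1 and the threonyl enzyme TARS3 did not pass the test in either treatment. RARS1 stood at 89.3, 85.5 and 90.8 CPM in the controls, at 85.5, 81.9 and 77.7 CPM with decitabine and at 90.4, 78.8 and 76.2 CPM with the combination treatment. Its fitted changes were -0.12 (adjusted p = 0.19, edgeR) and -0.11 (adjusted p = 0.2), and the sign turned to 0.13 and 0.11 with scaling by library size alone. Without combination replicate 1, the highest of the 3, the change with the combination treatment was called, at -0.20 (adjusted p = 0.025), and over all fits without 1 library it ranged from -0.20 to -0.07. TARS3, a paralog of TARS1 with 175 to 237 counts per library, gave -0.28 (adjusted p = 0.088) and -0.25 (adjusted p = 0.13), and was called in both comparisons without control replicate 1, its lowest control, at -0.42 and -0.38, and with decitabine also without decitabine replicate 1. The other way, TARS3 went to -0.17 without decitabine replicate 3 and to -0.19 without control replicate 2 or 3.

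The histidyl enzyme HARS1 was called with decitabine at the edge of the threshold, with -0.19 (SE 0.08, adjusted p = 0.043, edgeR), and gave -0.09 (adjusted p = 0.35) with the combination treatment. Its call was lost in 10 of the 17 alternatives, 5 of which leave out 1 library (control replicate 2 or 3, decitabine replicate 2 or 3, or combination replicate 2), and the sign turned with scaling by library size alone (0.05 and 0.13). HARS1 is divergently placed to its paralog HARS2, the mitochondrial enzyme. Their starts lie 85 bases apart on chromosome 5 of GRCh38, at 140691370 on the minus strand and 140691455 on the plus strand. HARS2 stood at 60.5, 62.5 and 62.1 CPM in the controls and at 31.4, 30.0 and 29.6 CPM with decitabine. It fell by 1.02 (SE 0.07, adjusted p = 2.5e-08, edgeR) and by 0.97 on the log2 scale, so the divergent neighbours had unequal changes. The genes are similar in sequence and share 108 exon bases on opposite strands, and strandedness of the library is not given in the sources used here, so some reads may be split between them.

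Phenylalanyl-tRNA synthetase is built in the cytosol from subunits of FARSA and FARSB. FARSA changed by -0.61 and -0.77 and FARSB by -1.04 and -0.86, all called. Per kilobase of transcript, the level of FARSA exceeded that of FARSB 9.005- to 9.13-fold in the 3 control libraries, 11.2- to 12.8-fold after decitabine and 9.33- to 10.6-fold after the combination. The ratios of both treated groups lay above all control ratios, and the ratios of the treated groups did not overlap. The size of the ratio depends on the transcript lengths taken, 1811 bases for FARSA and 6761 for FARSB. Before division by length, the mean control levels were 311 and 128 CPM. Whether the cells use these transcripts was not tested.

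Of the 7 cytosolic synthetases of the multisynthetase complex (EPRS1, IARS1, KARS1, LARS1, MARS1, QARS1 and RARS1), 6 fell with each treatment, with medians of -0.69 and -0.65. Of the 13 cytosolic synthetases outside it, 12 and 11 fell, with medians of -0.75 and -0.86. Of the 3 scaffold genes of the complex, 1 fell with each treatment, where 32.5% and 31.3% of all genes tested fell. AIMP1 was at 47.9 to 49.8 CPM in the controls and at 46.9 to 52.0 CPM with decitabine, and AIMP2 at 50.3 to 55.3 and at 48.3 to 52.9 CPM, and neither passed the test with decitabine (adjusted p = 0.99 and 0.59) or with the combination treatment (adjusted p = 0.16 and 0.98, edgeR). Scaling by library size alone called both genes higher in both comparisons (AIMP1 0.24 and AIMP2 0.19 with decitabine). The third scaffold gene, EEF1E1, stood at 46.2, 43.5 and 45.7 CPM in the controls, at 31.5, 31.6 and 29.6 CPM with decitabine and at 43.6, 39.3 and 32.8 CPM with the combination treatment. EEF1E1 fell by 0.55 (adjusted p = 0.00014, edgeR) with decitabine and was above its decitabine level in the combination treatment, by 0.32 (adjusted p = 0.037). Its call against control in the combination treatment (-0.23, adjusted p = 0.046) was lost in 11 of 17 alternatives, among them the fits without any 1 control and those without decitabine replicate 2, combination replicate 2 or combination replicate 3 (range -0.34 to -0.12).

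By structural class, 8 of 9 class I cytosolic synthetases fell with each treatment, and 9 and 8 of 10 class II enzymes. The medians were -0.75 and -0.81 for class I and -0.67 and -0.82 for class II, so the classes lay close together.

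**Figure D2:**
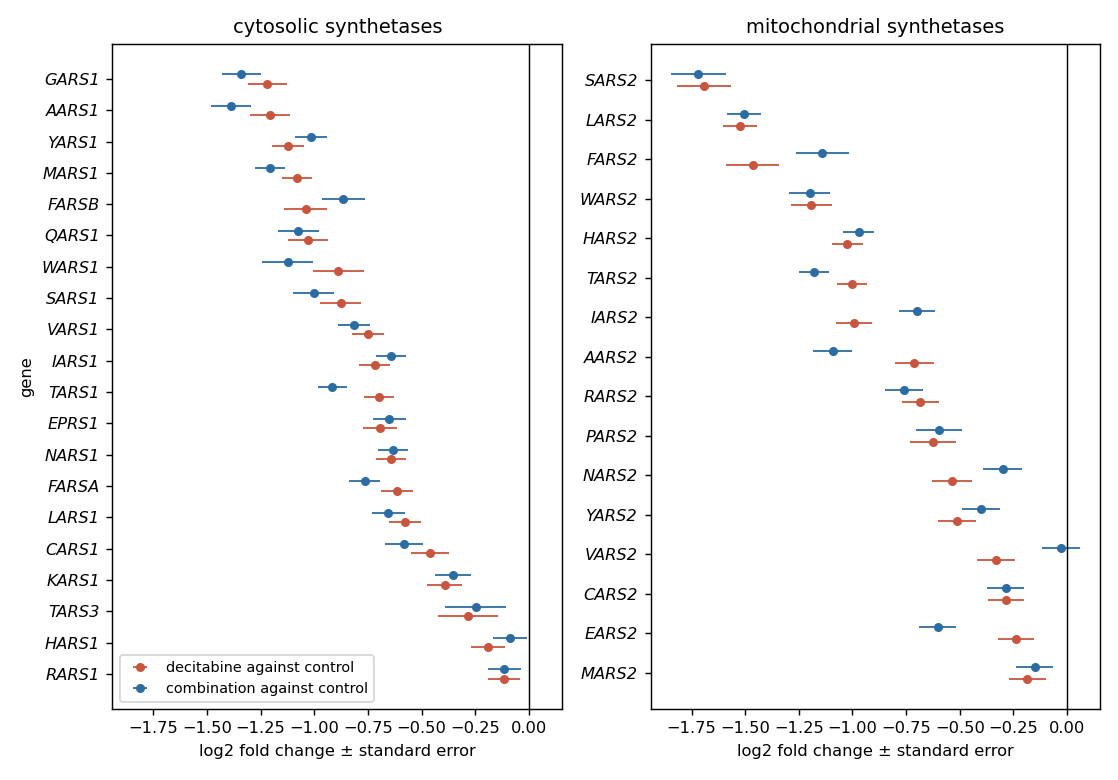
Log2 fold change against control for each cytosolic (left) and mitochondrial (right) synthetase, with decitabine in red and the combination treatment in blue and bars of 1 standard error. With TMM scaling all points lie left of 0, from -1.72 for SARS2 to -0.03 for VARS2, both with the combination treatment.

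Of the 16 mitochondrial synthetases, 15 fell with decitabine and 14 with the combination treatment, where 32.5% and 31.3% of all genes tested fell. Their medians were -0.70 and -0.73. The seryl enzyme SARS2 changed most of all 36 genes. SARS2 stood at 18.5, 19.9 and 15.6 CPM in the controls, at 5.67, 5.91 and 5.12 CPM with decitabine and at 5.53, 5.81 and 5.07 CPM with the combination treatment. Its log2 fold changes were -1.69 (SE 0.13, adjusted p = 4.2e-08, edgeR) and -1.72 (SE 0.13, adjusted p = 3.8e-08), which is a level 3.23-fold and 3.29-fold lower. SARS2 shares 48.2% of its exon bases with another protein-coding gene model on the same strand (ENSG00000269547), which had a mean of 1.07 counts per library.

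The leucyl enzyme LARS2 stood at 86.9, 85.8 and 97.1 CPM in the controls, at 32.6, 29.2 and 32.1 CPM with decitabine and at 33.1, 30.4 and 31.6 CPM with the combination treatment, a change of -1.52 (SE 0.08, adjusted p = 1.2e-09, edgeR) and -1.50 (SE 0.08, adjusted p = 1.4e-09). FARS2, the single-subunit phenylalanyl enzyme, fell from 18.8 ± 0.362 CPM to 6.81 ± 0.822 and 8.54 ± 1.10 CPM (SD, n = 3). WARS2, the mitochondrial tryptophanyl enzyme, fell from 26.9 ± 1.33 to 11.8 ± 0.875 and 11.7 ± 0.393 CPM. The threonyl enzyme TARS2 changed by -1.003 and -1.18, and the isoleucyl enzyme IARS2 by -0.99 and -0.70.

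At the other end, the methionyl enzyme MARS2 was at 59.7, 55.4 and 60.9 CPM in the controls, at 55.5, 53.0 and 46.3 CPM with decitabine and at 56.9, 52.5 and 49.1 CPM with the combination treatment. The groups overlapped, and its changes of -0.19 (adjusted p = 0.066, edgeR) and -0.15 (adjusted p = 0.13) were not called, with a turned sign under scaling by library size alone (0.06 and 0.07). Without decitabine replicate 1, combination replicate 1 or combination replicate 3 the change of MARS2 with decitabine was called, and without combination replicate 1 so was that with the combination treatment. When 1 library was left out MARS2 ranged from -0.25 to -0.11 with decitabine, the latter without decitabine replicate 3, and from -0.22 to -0.10 with the combination treatment. CARS2 changed by -0.28 and -0.29 and NARS2 by -0.54 and -0.30. VARS2, the valyl enzyme, fell with decitabine (-0.33, adjusted p = 0.0038) and gave -0.03 (adjusted p = 0.8) with the combination treatment, or 0.19 with scaling by library size alone. A non-coding gene model on the same strand (ENSG00000288473, mean of 73.6 counts) covers 63.0% of the exon bases of VARS2.

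**Figure D3:**
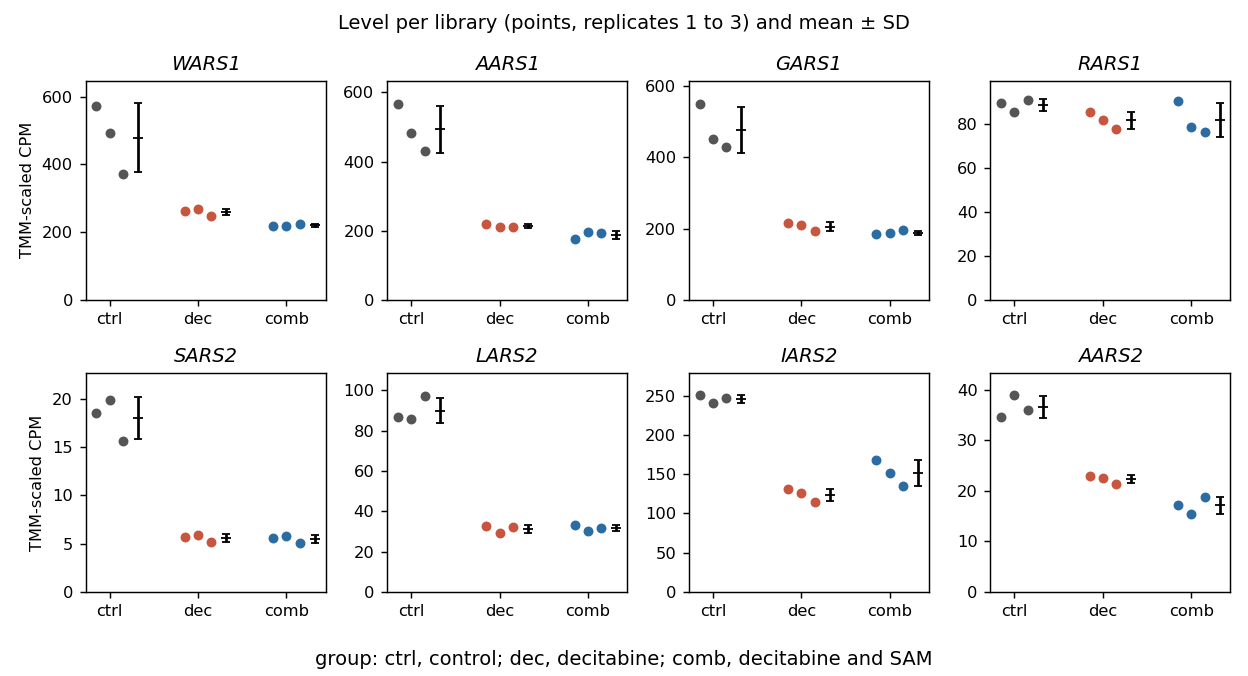
TMM-scaled CPM of 8 synthetase mRNAs in each library (points, in the order of replicates 1 to 3) with the mean and SD of each group (n = 3), for control (ctrl), decitabine (dec) and the combination treatment (comb). The treated points lie below all control points except for RARS1 with the combination treatment, and WARS1, AARS1 and GARS1 have their widest spread in the controls.

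Cytosolic and mitochondrial genes differed little in their median fold change. The cytosolic median minus the mitochondrial one was -0.01 with decitabine and -0.06 with the combination treatment. For scale, the cytosolic minus mitochondrial median log2 level of single libraries had a pooled SD of 0.05 within groups. Summed over the 20 cytosolic genes, the level was 6686, 6071 and 5722 CPM in the controls, 3672, 3543 and 3356 CPM with decitabine and 3430, 3381 and 3352 CPM with the combination treatment. Summed over the 16 mitochondrial genes, it ran from 903 to 917 CPM in control libraries, from 503 to 542 CPM after decitabine and from 522 to 576 CPM after the combination. Both sums fell without overlap, and the control libraries differed more in the cytosolic sum than in the mitochondrial one.

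Levels per kilobase of the MANE Select transcript allow genes to be ranked, provided the cells use that transcript, which was not tested. In the controls SARS1 (221 ± 35.7 CPM per kb), GARS1 (196 ± 26.5) and WARS1 (182 ± 38.3) led, and neighbours in this order differed by less than the larger of their SDs (n = 3). FARSA (172 ± 6.99), MARS1 (156 ± 8.24) and AARS1 (144 ± 19.9) followed. IARS2, at 69.7 ± 1.46 CPM per kb, was the highest mitochondrial synthetase and lay just above the cytosolic LARS1 (64.2 ± 1.17). EARS2 (6.6 ± 0.25), PARS2 (7.51 ± 0.339) and AARS2 (7.62 ± 0.448) were the lowest mitochondrial genes and TARS3 (3.09 ± 0.479) the lowest of all.

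The balance between the compartments was compared by amino acid. The cytosolic to mitochondrial ratio per kilobase could be formed for 16 amino acids. With decitabine the log2 ratio lay below all controls for 5 of them, above all controls for 8 and overlapped for 3. With the combination treatment these numbers were 4, 6 and 6. Among single genes, 34.8% lay below and 38.1% above all controls with decitabine, and 33.6% and 38.0% with the combination. A ratio joins a pair of genes, so these shares are no direct reference for it. Whether these pairs stand apart from other pairs was not tested. Exact tests of 3 against 3 libraries cannot go below p = 0.1, so these ratios are described without a test.

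For methionine the log2 ratio of MARS1 to MARS2 was 3.06, 3.08 and 2.88 in the controls, 2.08, 2.06 and 2.20 with decitabine and 1.84, 1.95 and 2.06 with the combination treatment, a difference of group means of -0.89 and -1.05. Tyrosine (-0.60 and -0.61) and valine (-0.42 and -0.78) moved the same way in both treatments, as the cytosolic member fell by more. For leucine the ratio of LARS1 to LARS2 was 1.85, 1.81 and 1.66 in the controls, 2.78, 2.84 and 2.53 with decitabine and 2.61, 2.63 and 2.62 with the combination treatment, a difference of 0.94 and 0.85. Histidine (0.83 and 0.88), serine (0.82 and 0.72), phenylalanine (0.82 and 0.37), arginine (0.57 and 0.64) and threonine (0.31 and 0.26) moved in the same direction as leucine without overlap in either treatment. For tryptophan the ratio of WARS1 to WARS2 was higher by 0.33 with decitabine and by 0.10 with the combination treatment, where the groups overlapped.

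**Figure D4:**
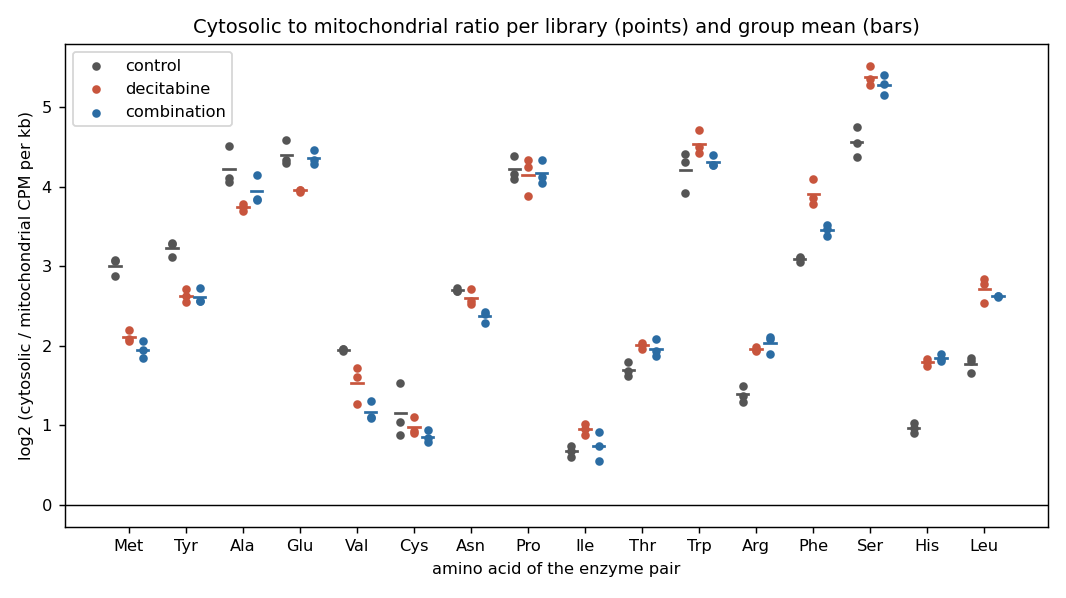
Log2 ratio of the cytosolic to the mitochondrial synthetase, each as CPM per kilobase of transcript, for 16 amino acids, with 1 point per library and a bar for each group mean. Methionine, tyrosine and valine lie lower in both treated groups than in controls, and phenylalanine, serine, histidine and leucine lie higher.

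WARS1 fell in both treatments, in which interferon-stimulated genes rose. It stood at 573, 494 and 372 CPM in the controls, at 262, 267 and 249 CPM with decitabine and at 219, 217 and 224 CPM with the combination treatment. Every treated library lay below every control, and the controls spread over a wider range than either treated group. WARS1 fell by 0.89 (SE 0.12, adjusted p = 2.3e-05, edgeR) with decitabine and by 1.12 (SE 0.12, adjusted p = 3.1e-06) with the combination treatment. The change of WARS1 minus the median change of the other cytosolic synthetases was -0.19 with decitabine and -0.36 with the combination treatment. For scale, the log2 level of WARS1 minus the median of the others in single libraries had a pooled SD of 0.16 within groups.

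Interferons act through receptor-bound kinases, and the factors these activate bind interferon-stimulated response elements in the promoters of antiviral genes. Of 18 interferon-stimulated genes listed, 18 rose with decitabine, where 36.3% of all genes tested rose. CXCL10 had 1 count in all controls together, and the other 17 had a median log2 fold change of 3.74 (range 1.15 to 6.21). With the combination treatment 11 rose, where 35.9% of all genes did, with a median of 2.08 over the same 17 genes. Against decitabine 14 of the 18 were lower, where 8.02% of all genes were. MX2, an antiviral GTPase, showed the largest rise with decitabine, from 2.04, 1.65 and 0.889 CPM to 117, 108 and 115 CPM.

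IRF1, the transcription factor that acts early after interferon gamma, rose by 1.15 (adjusted p = 8.4e-06, edgeR) with decitabine and gave 0.24 (adjusted p = 0.15) with the combination treatment. Combination replicate 3 was the highest combination library for MX2 (4.53, 5.06 and 37.5 CPM), while WARS1 in the same libraries lay between 217 and 224 CPM. Without combination replicate 3, 12 of the 18 genes rose in the combination group, the median of the 17 genes went from 2.08 to 1.30, and 18 were below decitabine. Without combination replicate 1 the count below decitabine was 6, and without combination replicate 2, decitabine replicate 1 or decitabine replicate 2 it was 5. The number that rose in the combination group ranged from 8 without control replicate 3 to 15 without combination replicate 1. The MX2 call there (3.36, adjusted p = 0.035, edgeR) was lost in 9 of 16 alternatives. Of these, 6 leave out 1 control or decitabine library.

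Of 8 genes of tryptophan use, 5 could be tested. Of these, 5 rose with decitabine and 4 with the combination treatment, where 36.3% and 35.9% of all genes did. IDO1, which degrades tryptophan and is also on the interferon list, was at 0.298, 0.300 and 0.0494 CPM in the controls, at 9.05, 7.38 and 11.98 CPM with decitabine and at 0.435, 0.528 and 4.43 CPM with the combination treatment. Its change in the combination group missed the threshold (3.04, adjusted p = 0.068, edgeR), and was called without combination replicate 1 or 2. It ranged from 1.14 without combination replicate 3, the highest of the 3, to 3.49 without combination replicate 1.

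The windows before the 2 RefSeq starts of WARS1 (ENSG00000140105, chromosome 14, 100333790 to 100376805, minus strand, GRCh38) are shown because the upstream one of the pair holds no searched motif and the other holds interferon motifs. Each covers the 250 bases before the start in RefSeq GRCh38.p14, minus strand. Capitals mark a match to the core of the interferon-stimulated response element (TTTC, 2 bases of any kind and TTTC, here on the opposite strand) at bases -55 to -46, and a match to TTCNNNGAA, the gamma-activated site of interferon signalling, at bases -142 to -134, both searched on both strands.

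WARS1 window at chr14:100375348-100375597: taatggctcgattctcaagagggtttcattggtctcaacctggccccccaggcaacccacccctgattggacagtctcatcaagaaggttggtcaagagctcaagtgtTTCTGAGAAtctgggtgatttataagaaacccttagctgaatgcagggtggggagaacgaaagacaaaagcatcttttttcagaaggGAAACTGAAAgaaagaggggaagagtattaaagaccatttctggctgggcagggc

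WARS1 window at chr14:100376328-100376577: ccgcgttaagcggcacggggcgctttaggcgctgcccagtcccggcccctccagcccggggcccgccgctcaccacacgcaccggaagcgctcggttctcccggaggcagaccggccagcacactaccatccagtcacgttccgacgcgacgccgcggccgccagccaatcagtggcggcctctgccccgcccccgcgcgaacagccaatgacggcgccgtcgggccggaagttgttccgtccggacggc

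In windows of 300 bases (250 before and 50 after the start), the response element core was found in 4.38% of 27305 genes, and among the synthetases in WARS1 and EARS2. The gamma-activated site was found in 9.38% of all genes. Among the synthetases it was found in 3 of 16 cytosolic genes (WARS1, CARS1 and TARS1) and 2 of 14 mitochondrial genes (PARS2 and WARS2). A further motif searched, the E-box CACGTG, was found in 8.77% of all genes. It was in 1 of 16 cytosolic genes (IARS1) and 3 of 14 mitochondrial genes (CARS2, EARS2 and MARS2). EARS2 has the response element core in capitals at chr16:23557554-23557583, minus strand.

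EARS2: cctgccacgcTTTCGCTTTCccaagctgaa

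EARS2 fell by 0.24 (adjusted p = 0.02, edgeR) with decitabine and by 0.60 (adjusted p = 2.2e-05) with the combination treatment, so neither synthetase with this core rose with the interferon-stimulated genes. The decitabine call of EARS2 was lost without control replicate 2 or 3, without decitabine replicate 3 and with scaling by library size alone, where the value was 0.01 (range when 1 library was left out -0.30 to -0.18). A match is a stretch of letters, and binding was not measured.

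The 11 cytosolic synthetases usually listed as ATF4 targets (AARS1, CARS1, EPRS1, GARS1, IARS1, MARS1, NARS1, SARS1, TARS1, WARS1 and YARS1) all fell in both treatments, with medians of -0.88 and -1.003. Of the 9 other cytosolic synthetases 7 and 6 fell, with medians of -0.58 and -0.65. The shares that fell over all genes tested were 32.5% and 31.3%. ATF4 itself stood at 519, 444 and 392 CPM in the controls, at 208, 209 and 216 CPM with decitabine and at 168, 161 and 176 CPM with the combination treatment. ATF4 fell by 1.10 (adjusted p = 1.1e-07, edgeR) and by 1.42 (adjusted p = 9.4e-09), and the combination level was below that of decitabine by 0.33 (adjusted p = 0.027).

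Of 18 genes of amino acid starvation signalling and ATF4 action, 11 fell with decitabine and 12 with the combination treatment, and 0 rose. Of all genes tested, 32.5% and 31.3% fell in the respective treatments, and 36.3% and 35.9% rose. The pseudokinase gene TRIB3, a feedback inhibitor of ATF4, fell most with decitabine, from 584, 426 and 301 CPM to 91.9, 96.4 and 89.5 CPM. ASNS, asparagine synthetase, fell by 2.05 and by 2.51 on the log2 scale, from 249, 193 and 153 CPM to 48.5, 49.5 and 45.5 CPM and to 31.8, 34.1 and 38.3 CPM.

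The controls differed among themselves in these genes. Control replicate 1 was the highest of the 3 controls in 11 of 11 ATF4-listed synthetases, in 4 of 9 other cytosolic synthetases, in 7 of 16 mitochondrial synthetases and in 16 of 18 starvation genes, as in 36% of all genes tested. The median log2 difference of control replicate 1 from control replicate 3 was 0.25 in the ATF4-listed synthetases, -0.01 in the other cytosolic ones, 0.01 in the mitochondrial ones and 0.00 over all genes. Without control replicate 1 all 11 ATF4-listed synthetases still fell in both treatments, with medians of -0.75 and -0.88, and 8 and 7 of the 9 others, with medians of -0.57 and -0.65.

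**Figure D5:**
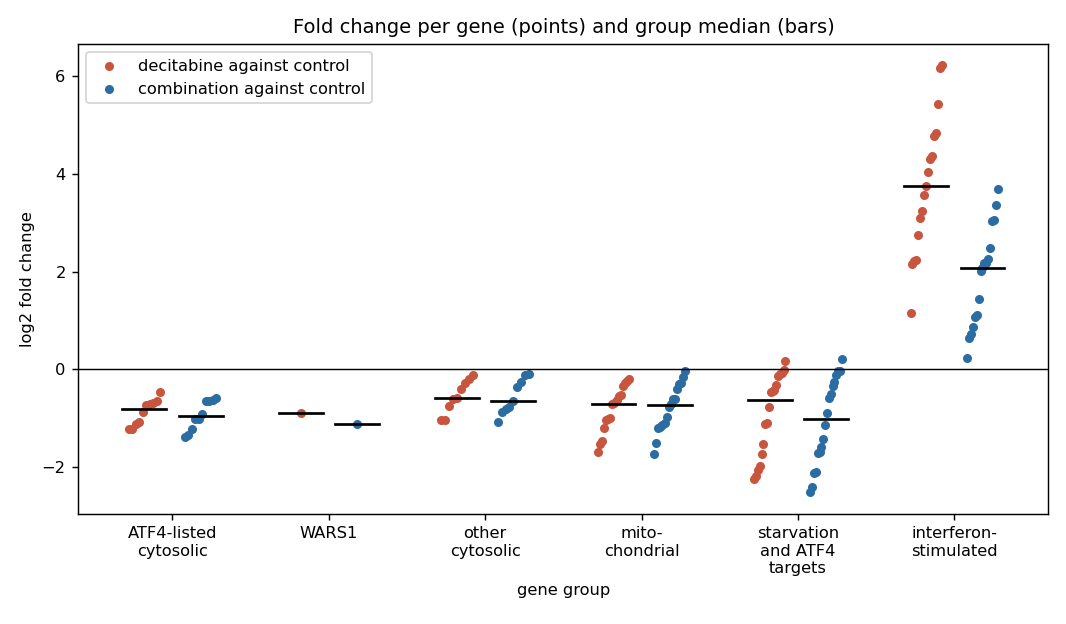
Log2 fold change against control of each gene (points) and the group median (black bars) for decitabine (red) and the combination treatment (blue), with WARS1 drawn apart from the 10 other ATF4-listed synthetases and CXCL10 left out of the interferon-stimulated genes. WARS1 lies below 0 beside the other synthetases, while the interferon-stimulated genes lie above 0, up to 6.21 with decitabine.

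The promoter windows of these genes are shown for the element that ATF4 binds with C/EBP partners, TGATGNAA or its reverse complement, searched on both strands. Windows were at hand for 30 of the 36 synthetases, with 39 windows in all. The element was found in 7 of 16 cytosolic genes, or 43.8%, all of them on the ATF4 list of which 10 had a window, and in 1 of 14 mitochondrial genes (YARS2), against 4.46% of 27305 genes. Each sequence has 30 bases of RefSeq GRCh38.p14 with the element in capitals. The element lay wholly before the start in AARS1 (bases -187 to -180), GARS1 (-33 to -26), IARS1 (-13 to -6) and YARS2 (-197 to -190). In CARS1 (-2 to 5) and MARS1 (-4 to 3) it spanned the start. In TARS1 (2 to 9) and NARS1 (14 to 21) it lay past the start.

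AARS1 at chr16:70289675-70289704, minus strand: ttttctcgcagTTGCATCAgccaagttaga

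CARS1 at chr11:3057407-3057436, minus strand: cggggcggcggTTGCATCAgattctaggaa

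GARS1 at chr7:30594834-30594863, plus strand: ttacgcggcgaTTTCATCAtgctccgagcc

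IARS1 at chr9:92293692-92293721, minus strand: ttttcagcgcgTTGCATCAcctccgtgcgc

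MARS1 at chr12:57488053-57488082, plus strand: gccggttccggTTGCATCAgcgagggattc

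NARS1 at chr18:57621804-57621833, minus strand: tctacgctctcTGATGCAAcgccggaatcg

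TARS1 at chr5:33440956-33440985, plus strand: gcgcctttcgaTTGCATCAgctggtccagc

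YARS2 at chr12:32756076-32756105, minus strand: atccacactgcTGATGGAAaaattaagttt

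The 7 cytosolic genes with the element fell with decitabine by 0.46 (CARS1) to 1.22 (GARS1) on the log2 scale, and YARS2 by 0.51. QARS1 has no match in its window and changed by -1.03, within the range of these genes. MARS1 shares 5.05% of its exon bases with DDIT3 on the opposite strand, a starvation gene that also fell (-0.77 and -1.59).

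The treatments differed little from each other in the synthetases. With the combination treatment against decitabine 3 genes were called lower and 2 higher, where 8.02% of all genes tested were called lower and 7.67% higher. The median was -0.05 for the cytosolic genes and 0.02 for the mitochondrial genes, against 0.00 over all genes. It was -0.12 for the 11 ATF4-listed synthetases and 0.00 for the 9 other cytosolic ones. Of the 11, 6 lay lower without overlap of the libraries and 1 higher, and of the 9 others 0 and 0. Among all genes tested 16.8% and 17.2% did. TARS1, the cytosolic threonyl enzyme, was lower (213, 210 and 200 CPM against 172, 181 and 183 CPM, log2 difference -0.22, SE 0.07, adjusted p = 0.043, edgeR). So were the mitochondrial alanyl enzyme AARS2 (23.0, 22.6 and 21.4 against 17.1, 15.5 and 18.9 CPM, -0.38, SE 0.09, adjusted p = 0.014) and the mitochondrial glutamyl enzyme EARS2 (31.1, 29.7 and 26.4 against 22.7, 21.4 and 23.6 CPM, -0.36, SE 0.09, adjusted p = 0.012).

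Higher with the combination treatment were the mitochondrial isoleucyl enzyme IARS2 and the valyl enzyme VARS2. IARS2 stood at 130, 125 and 115 CPM with decitabine and at 168, 152 and 135 CPM with the combination treatment (0.29, SE 0.08, adjusted p = 0.029, edgeR). VARS2 stood at 30.6, 30.0 and 35.3 CPM and at 36.8, 42.7 and 39.0 CPM (0.31, SE 0.09, adjusted p = 0.031). In all 5 genes, named because they were called, the groups did not overlap. Over all genes tested, 16.8% lay lower without overlap and 17.2% higher. None of the 5 kept its call in every alternative. Without decitabine replicate 2 or without combination replicate 2, all 5 lost it. The calls over all genes, 1421 higher and 1487 lower, were then 408 and 596 or 381 and 480. TARS1 also lost it without control replicate 2 or 3, decitabine replicate 1 or combination replicate 1, IARS2 without decitabine replicate 3 or combination replicate 1, and VARS2 without control replicate 2 or decitabine replicate 1. Across all fits without 1 library the log2 difference was -0.25 to -0.19 for TARS1, -0.45 to -0.31 for AARS2, -0.43 to -0.31 for EARS2, 0.21 to 0.37 for IARS2 and 0.25 to 0.38 for VARS2.

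Under the combination treatment WARS1 was below its decitabine level by 0.24 (SE 0.12) without overlap of the libraries, which did not pass the test (adjusted p = 0.19, edgeR) and passed it when only the 6 treated libraries were fitted (adjusted p = 0.044). FARS2 gave 0.33 (adjusted p = 0.095), and was called at an adjusted p of 0.04 without combination replicate 3 (range over fits without 1 library 0.22 to 0.42), and FARSB gave 0.18.

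Other steps of tRNA charging and use were read from further gene lists. Mitochondria lack a glutaminyl-tRNA synthetase of their own and amidate glutamate on the tRNA with the GatCAB enzyme, and MTFMT formylates the initiator methionine. All 4 of these genes fell with decitabine and 3 of 4 with the combination treatment, where 32.5% and 31.3% of all genes tested fell. GATB stood at 27.6, 25.7 and 25.7 CPM in the controls, at 9.34, 7.26 and 7.11 CPM with decitabine and at 7.14, 7.44 and 7.24 CPM with the combination treatment (-1.74 and -1.86). QRSL1, the catalytic subunit, changed by -1.23 and -1.15 and GATC by -0.44 and -0.53. MTFMT fell by 0.50 (adjusted p = 0.00019, edgeR) with decitabine, gave -0.09 (adjusted p = 0.39, and 0.13 with scaling by library size alone) with the combination treatment and was higher there than with decitabine by 0.41 (adjusted p = 0.009).

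Of the 5 genes of elongation factor 1, which brings charged tRNA to the cytosolic ribosome, 4 fell with each treatment and 1 rose with the combination treatment, and EEF1B2 fell most with decitabine (-1.05). Of 9 mitochondrial translation factors 5 fell with decitabine, and 6 fell and 2 rose with the combination treatment. MRRF, the ribosome recycling factor, changed by -1.25 and -1.22. Of 5 genes of tRNA export and end processing 4 and 5 fell, among them the endonuclease ELAC1 (-0.78 and -0.55). The shares over all genes tested were 32.5% lower and 36.3% higher with decitabine, and 31.3% and 35.9% with the combination treatment.

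Of 4 genes of trans-editing, which clears mischarged tRNA, 2 fell with each treatment and 1 rose with the combination treatment, and DTD1 changed most (-1.28 and -0.98). Selenocysteine is made on its tRNA, and of the 6 genes for it 2 rose and 2 fell with decitabine and 1 rose and 3 fell with the combination treatment, against 36.3% and 32.5% of all genes with decitabine and 35.9% and 31.3% with the combination. PSTK, the kinase of this route, rose by 0.54 (adjusted p = 0.012, edgeR) with decitabine, a call lost without control replicate 3 (0.37, adjusted p = 0.07), and by 1.12 with the combination treatment. EEFSEC, the elongation factor for selenocysteine, changed by -1.49 and -1.66.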

How the data were processed

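RNA-seq libraries of PC-3 cells were sequenced on the BGISEQ-500 platform. Per the methods of the study, reads were trimmed with TrimGalore 0.6.4 and counted with kallisto against GRCh38.p13 (0.46.1 there, 0.4.6 in the submitters' processing notes). The authors deposited estimated counts for each Ensembl gene without normalization, and these were used. kallisto divides reads that fit several transcripts, so paralogs and overlapping genes may be split. The log2 CPM values the authors deposited were not used.

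Counts were rounded and tested with edgeR 4.0.16 in R 4.3.3, with filterByExpr, TMM scaling and the robust quasi-likelihood test, 1 mean per group over all 9 libraries and Benjamini-Hochberg adjustment over 18532 genes at a threshold of 0.05. The study's methods name voom and limma, which was an alternative (limma 3.58.1), as were DESeq2 1.42.0, its size factors, library size alone, no filter, a minimum mean of 10 counts, a fit on the 6 libraries of the comparison alone, a replicate block and leaving out each library. Gene positions and transcript lengths came from GENCODE 44, which matched 60357 of 60617 identifiers, and promoters from RefSeq. Members, lists and tests were chosen with earlier results of these data known, and the ranking of controls by replicate after values were seen. All 36 synthetases could be named against control. Between treatments the named ones were WARS1, those called, and the 3 largest differences in each direction. From each list the called genes with the largest rise and fall with decitabine were named, plus a few set genes. DDIT3 was named after its values were seen, for its overlap with MARS1. Libraries of SAM alone and methylation assays were not analysed here, and the values of 1 listed gene are not reported here. Pairs of libraries within a group differed by 6.40 to 26.1 in chi-square per degree of freedom, so none was a copy.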

Additional observations from a re-analysis of the deposited data

How the results depend on the processing

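Against control, each alternative called 16 to 19 cytosolic and 12 to 16 mitochondrial synthetases lower with decitabine, and 16 to 18 and 11 to 15 with the combination treatment, and none higher. Of the 33 and 31 genes called lower, 28 and 27 kept the call under every alternative. With library size alone the cytosolic median went to -0.46 and -0.57 in the respective treatments, the mitochondrial median -0.45 and -0.51, and the sign turned for HARS1 (0.053 and 0.13), RARS1 (0.13 and 0.11), MARS2 (0.060 and 0.069), AIMP2 (0.19 and 0.22), EARS2 (0.0060) and AIMP1 (0.24) with decitabine, and VARS2 (0.19) and MTFMT (0.13) with the combination treatment. All of these lie below the shift of all genes under that scaling (0.28 and 0.27). AIMP1 with decitabine turned to 0.019 with DESeq2 size factors and with DESeq2, to 0.016 with a minimum mean of 10 counts and to 0.025 with only the 6 libraries, and ranged from -0.051 to 0.024 when 1 library was left out. AIMP2 with the combination treatment turned to 0.0089 with DESeq2 size factors, 0.0088 with DESeq2, 0.013 with the minimum mean and 0.016 with the 6 libraries, and ranged from -0.092 to 0.036. VARS2 with the combination treatment ranged from -0.090 to 0.0098, the latter without combination replicate 1.

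Between the treatments, leaving out 1 library gave 0 to 1 cytosolic genes lower and 0 to 1 higher, 0 to 2 mitochondrial genes lower and 0 to 3 higher, a cytosolic median of -0.11 to 0.010 and a cytosolic minus mitochondrial median of -0.15 to -0.026. With decitabine against control the latter was -0.045 to 0.039. The number of mitochondrial genes called higher was 1 with library size alone and 0 with the 6 libraries, where WARS1 was called at -0.24. The number of cytosolic genes called lower was 0 without a filter. The cause of these changes was not tested, beyond the fewer libraries in some fits.

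Replicate numbers were not taken to pair the libraries, since not every same-numbered pair correlated above 0.1. Deviations of same-numbered libraries correlated at -0.04 to 0.12 between control and treated groups and at 0.32, 0.05 and 0.32 between the treated groups, where differently numbered ones gave -0.31 to 0.05. This hints at a link of the treated libraries 1 and 3 that the labels do not give. With the replicate number as a block, 18 cytosolic and 16 mitochondrial genes were lower with decitabine (MARS2 then at an adjusted p of 0.045, edgeR), 17 and 14 with the combination treatment, and MX2 in the combination group missed the threshold (adjusted p = 0.074). Calls over all genes between the treatments went from 1421 higher and 1487 lower to 1766 and 1890 with the block, and ranged from 381 and 480 without combination replicate 2 to 2066 and 1997 without combination replicate 3. Depth was similar in all libraries and limits the low genes most, such as TARS3 and SARS2.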
